A study of Mus musculus with 6 samples.

Results

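The TIF1 (transcription intermediary factor 1) family has 4 genes in the mouse, *Trim24*, *Trim28*, *Trim33* and *Trim66*, and all 4 were found by symbol among the 24564 genes that every library lists. They were followed over cell types of the main olfactory epithelium and along the olfactory sensory neuron (OSN) lineage in 6 single-cell RNA-seq libraries. Swap replicates 1 and 2 were labelled Cbx*/* with a Cre allele. In these mice Cre exchanges the coding sequence of *Cbx1* (HP1β) for that of *Cbx5* (HP1α) under the *Cbx1* promoter. The controls were not of a single genotype: control replicate 1 was labelled WT and carried the Cre allele, and control replicate 2 was labelled Cbx*/*, the unrecombined alleles, and carried no Cre. The remaining libraries, with 1 sample each, came from a gg8-tTA; tetOP2iresGFP mouse (*tetOP2*), in which the *Gng8*-driven tTA transactivator switches on the P2 olfactory receptor, and from a gg8-tTA mouse (*gg8tTA*). The series text assigns the gg8-tTA constructs to all mice, whereas the genotype labels of the swap and control samples do not name them. Ages are not given in the sources used here.

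TIF1 proteins are large nuclear regulators that share the B-box and coiled-coil parts of the amino-terminal tripartite motif with other TRIM proteins. They also have a PHD finger and bromodomain at the carboxyl end. *Trim28* (TIF1β, KAP1) is the corepressor that KRAB zinc finger proteins bring to DNA, where it recruits the methyltransferase Setdb1, HP1 proteins and histone deacetylases and so builds heterochromatin. *Trim24* (TIF1α) is known as a coregulator of nuclear receptors such as the retinoic acid receptors, *Trim33* (TIF1γ) as a regulator of SMAD signalling, and *Trim66* (TIF1δ) as a family member with restricted expression that was first described in testis. Each OSN expresses a single olfactory receptor, and the receptor genes it does not use are packed into heterochromatin in which HP1 proteins are found.

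The members lie on 3 chromosomes (GRCm38, GENCODE M21). *Trim24* spans chr6:37870811-37966296 on the plus strand, *Trim33* chr3:103279293-103358775 on the plus strand, *Trim28* chr7:12999114-13031035 on the plus strand and *Trim66* chr7:109449006-109508134 on the minus strand. Of these, *Trim28* overlaps another gene of the files, *Zbtb45*, over 6137 bases on the opposite strand, a stretch that lies ahead of the RefSeq start of *Trim28*, and whether strand was used in the counting is not given in the sources used here. *Trim33* holds a sense-intronic transcript that is not among the genes of the files. By the methods of the study introns were counted, so UMIs can come from any part of these gene bodies.

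Promoters were found for *Trim24* (with a further start farther in, not printed), *Trim28* and *Trim66* in RefSeq (GRCm38.p6), as the 250 bases before and 50 bases after each start, and are shown because *Trim28* and *Trim66* take opposite courses along the lineage. They are written 5′ to 3′ on the strand of the gene, with CG dinucleotides in capitals, for *Trim24* chr6:37870561-37870860 (plus strand), *Trim28* chr7:13023902-13024201 (plus strand) and *Trim66* chr7:109508085-109508384 (minus strand).
Trim24: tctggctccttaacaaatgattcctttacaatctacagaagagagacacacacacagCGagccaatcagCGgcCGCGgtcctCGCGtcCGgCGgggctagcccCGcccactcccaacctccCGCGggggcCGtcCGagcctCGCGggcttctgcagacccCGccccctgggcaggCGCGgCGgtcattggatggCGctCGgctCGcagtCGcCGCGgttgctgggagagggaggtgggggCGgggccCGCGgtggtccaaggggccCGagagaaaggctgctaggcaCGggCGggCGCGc
Trim28: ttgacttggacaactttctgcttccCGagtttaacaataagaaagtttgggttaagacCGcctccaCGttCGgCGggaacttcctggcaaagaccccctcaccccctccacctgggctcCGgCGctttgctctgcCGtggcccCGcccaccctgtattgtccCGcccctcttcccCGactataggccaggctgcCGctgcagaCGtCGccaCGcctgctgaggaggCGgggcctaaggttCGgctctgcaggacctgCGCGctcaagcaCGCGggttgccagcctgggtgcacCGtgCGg
Trim66: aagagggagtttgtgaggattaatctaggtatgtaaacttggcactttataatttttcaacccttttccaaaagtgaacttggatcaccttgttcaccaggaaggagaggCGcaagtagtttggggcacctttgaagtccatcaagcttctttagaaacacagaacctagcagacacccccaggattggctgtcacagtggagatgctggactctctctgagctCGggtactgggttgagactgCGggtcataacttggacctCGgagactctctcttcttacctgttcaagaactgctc
The *Trim24* window holds 33 CG dinucleotides and the *Trim28* window 23, against 4 in the *Trim66* window and a median of 7 over the 32851 promoter windows of the table. GC content was 70.3%, 64.0% and 47.0% in the same order. Of 3 further motifs searched on both strands, the Ebf-type palindrome CCCNNGGG (in 13.7% of all windows) matched at 2 places in the printed *Trim24* window. Neither the homeodomain core TAATTA (5.29% of windows) nor the E-box CATCTG (17.2%) matched in any of the 3 windows printed. The window of the further *Trim24* start held 1 CG dinucleotide and 1 E-box match, at a GC content of 46.7%.

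A minimum of 1000 UMIs and 500 genes per cell left 2563 to 5091 cells in each library. Libraries held 32005196 to 63277934 UMIs, and their median cell 9991 to 11543. Control replicate 2 kept 4433 of its 7703 barcodes, the lowest share. Gates were set on marker UMIs without any TIF1 gene. The first stage of the neuron lineage was that of globose basal cells (GBCs). The other gates used *Neurog1* and *Neurod1* for immediate neuronal precursors (INPs), *Gap43* with little or some *Omp* for early and late immature OSNs (iOSNs), *Omp* for mature OSNs (mOSNs), and lists of 5 or 6 markers for horizontal basal cells (HBCs) and the non-neuronal types. The labels name the cell type as OSN and the series text speaks of sorted cells, but 30.02% to 47.0% of the kept cells fell in the 3 OSN gates, with sustentacular cells, basal cells and blood cells among the rest. Levels are given as CPM, the UMIs of a gene scaled to the summed UMIs of all cells of a gate in 1 library, and levels of different genes are not compared, since the values are not scaled by length. Genes not used for the gates followed the stages: *Gng8*, a G protein subunit of immature OSNs, lay at 3.6 to 9.6 CPM in GBCs, 833 to 1678 in early iOSNs and 10.2 to 120.5 in mOSNs, and *Cnga4*, a subunit of the odour transduction channel, at 0 to 4.5 CPM in GBCs and 225 to 284 in mOSNs. Libraries shared at most 20 barcodes. GBCs were few, 18 to 36 per library, and the sum of the 18 GBCs of swap replicate 2 was left out below the minimum of 20 cells.

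The swapped gene separated the labels in every neuronal gate. *Cbx1* in mOSNs measured 1.0 and 3.2 CPM in swap replicates 1 and 2 against 80.3 and 153 CPM in control replicates 1 and 2, and *Cbx5* 77.1 and 89.0 against 20.3 and 30.03 CPM. Both genes had ranges without overlap. In the fit over mOSNs the log2 fold change of *Cbx1* was -5.73 (SE 0.67, edgeR adjusted p = 0.11), which missed the threshold used throughout, an adjusted p under 0.05 with a log2 fold change over 0.58 in size. It was called lower in GBCs, INPs, early and late iOSNs, HBCs and microvillar cells. The Cre allele is described as neuronal, yet *Cbx1* in sustentacular cells was 0.92 and 1.5 CPM in swap against 69.9 and 56.0 CPM in control libraries, and in fibroblasts 42.5 and 44.1 against 54.3 and 56.0 CPM. In swap libraries *Cbx1* was thus near 0 in supporting and basal cells as well, so these cells are no unaffected comparison within a swap mouse.

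*Trim66* was the member that marked the neuron. Summed over the 134 GBCs of the 5 libraries used, 8 *Trim66* UMIs were counted among 3125185. This gives 2.56 CPM (exact Poisson 95% interval 1.11 to 5.04, counting error only). Control replicate 1 had none, with an interval of the same kind up to 4.58 CPM. INPs measured 46.3 and 37.0 CPM in swap replicates 1 and 2, 64.6 and 66.3 in control replicates 1 and 2, 40.3 in *tetOP2* and 41.9 in *gg8tTA*. The lowest INP level lay above the highest GBC level of 7.19 CPM. Early iOSNs reached 262 and 373 CPM in the swap libraries, 253 and 377 in the controls, 235 in *tetOP2* and 213 in *gg8tTA*, 3.91 to 10.1 times the INP level of the same library.

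Across the 6 libraries, with the library as a block, *Trim66* rose by 4.29 on the log2 scale from GBCs to INPs (SE 0.38, edgeR adjusted p = 1.92e-09), an estimate that rests on those 8 UMIs. It rose by a further 2.37 from INPs to early iOSNs (SE 0.15, adjusted p = 1.71e-12). From early to late iOSNs the estimate was -0.11 (SE 0.13, adjusted p = 0.54), with *Trim66* higher in late iOSNs in 2 libraries and lower in 4. The late iOSN levels were 222 and 326 CPM in the swap libraries, 189 and 338 in the controls, 256 in *tetOP2* and 270.1 in *gg8tTA*. Then *Trim66* dropped to 132.5 and 204 CPM in swap mOSNs, 133 and 209.9 in control mOSNs, 144 in *tetOP2* and 137 in *gg8tTA*. This last step was lower in 6 of 6 libraries, at 0.506 to 0.704 of the late iOSN level. Its log2 fold change of -0.59 (SE 0.13, adjusted p = 0.00064) barely passed the threshold of size, and the call was lost at -0.57, -0.56 and -0.57 without swap replicate 2, *tetOP2* or *gg8tTA*, and at -0.41 in the control libraries alone. Between GBCs and mOSNs *Trim66* rose by 5.97 (SE 0.32, adjusted p = 2.81e-14).

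*Trim28* ran the other way. The level of this corepressor was highest in GBCs, at 241 CPM in swap replicate 1, 205 and 290.2 in control replicates 1 and 2, 359 in *tetOP2* and 357 in *gg8tTA*. INPs had 130.0 and 144 CPM in the swap libraries, 107 and 161 in the controls, 255 in *tetOP2* and 281 in *gg8tTA*. Early iOSNs had 62.2 and 76.3 CPM in the swap libraries, 67.9 and 95.6 in the controls, 141 in *tetOP2* and 136 in *gg8tTA*. Every early iOSN level was thus below the INP level of its library. By the mOSN stage 43.2 and 38.2 CPM remained in the swap libraries, 39.1 and 39.8 in the controls, 76.7 in *tetOP2* and 76.8 in *gg8tTA*. *Trim28* measured lower at each of the 4 steps in all libraries that could be compared, 5 of 5 for the step out of GBCs and 6 of 6 for the others.

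Of these steps, 2 passed the test. *Trim28* fell by 0.66 on the log2 scale from GBCs to INPs (SE 0.10, edgeR adjusted p = 4.49e-06) and by 0.98 from INPs to early iOSNs (SE 0.09, adjusted p = 1.12e-09). The log2 fold changes of -0.47 from early to late iOSNs (SE 0.09, adjusted p = 0.00024) and -0.27 from late iOSNs to mOSNs (SE 0.09, adjusted p = 0.018) did not reach the threshold of size. From GBCs to mOSNs *Trim28* fell by 2.39 (SE 0.10, adjusted p = 1.54e-16), to 0.137 to 0.215 of the GBC level of the same library.

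*Trim24*, the nuclear receptor coregulator, peaked in INPs. Its INP level was 169 and 284 CPM in swap replicates 1 and 2, 195 and 271 in control replicates 1 and 2, 107 in *tetOP2* and 108 in *gg8tTA*. GBCs of the same libraries had 56.7 CPM in swap replicate 1, 70.8 and 114 in the controls, 24.9 in *tetOP2* and 33.6 in *gg8tTA*, and INPs were 2.38 to 4.29 times higher than these. Early iOSNs had 109 and 148.5 CPM in the swap libraries, 128 and 149.5 in the controls, 81.3 in *tetOP2* and 88.0 in *gg8tTA*, below the INPs in every library.

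*Trim24* rose by 1.58 on the log2 scale from GBCs to INPs (SE 0.11, edgeR adjusted p = 4.56e-11) and fell by 0.73 from INPs to early iOSNs (SE 0.08, adjusted p = 7.20e-08). Neither later step passed, with -0.19 from early to late iOSNs (SE 0.08, adjusted p = 0.078) and -0.21 from late iOSNs to mOSNs (SE 0.08, adjusted p = 0.054). Mature OSNs had 83.6 and 96.2 CPM in the swap libraries, 92.7 and 105 in the controls, 56.4 in *tetOP2* and 54.4 in *gg8tTA*. Against GBCs the mOSN level differed by 0.46 (SE 0.11, adjusted p = 0.00077), short of the threshold of size, and was called higher at 0.59 without control replicate 2. In the 2 libraries *tetOP2* and *gg8tTA* alone the fall from INPs to early iOSNs was -0.43 and was not called.

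*Trim33*, the SMAD regulator, passed the test at no step. GBCs had 63.9 CPM in swap replicate 1, 80.7 and 106 in control replicates 1 and 2, 22.6 in *tetOP2* and 28.8 in *gg8tTA*. INPs had 99.7 and 120.4 CPM in swap replicates 1 and 2, 103 and 126 in control replicates 1 and 2, 36.5 in *tetOP2* and 35.3 in *gg8tTA*. The *tetOP2* and *gg8tTA* libraries lay well below the others at both stages. Mature OSNs had 74.7 and 89.6 CPM in the swap libraries, 64.9 and 94.8 in the controls, 32.4 in *tetOP2* and 33.4 in *gg8tTA*. The stage estimates were 0.45 from GBCs to INPs (SE 0.09, edgeR adjusted p = 0.00017), -0.28 to early iOSNs (SE 0.07, adjusted p = 0.00085), -0.19 to late iOSNs (SE 0.07, adjusted p = 0.025) and 0.12 to mOSNs (SE 0.06, adjusted p = 0.14), all under the threshold of size. From GBCs to mOSNs it was 0.11 (95% interval -0.21 to 0.43). By the ratio of the highest to the lowest stage, the *Trim33* levels lay closer together than those of any other member in each of the 6 libraries.

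These counts are read against all genes tested. The steps called 3 of 4 members from GBCs to INPs (35.9% of 12198 genes), 3 of 4 from INPs to early iOSNs (43.0%), 0 of 4 from early to late iOSNs (19.4%) and 1 of 4 from late iOSNs to mOSNs (21.1%). Between GBCs and mOSNs, 2 of 4 members were called, against 65.9% of the genes. With 4 genes these counts are no result about the family as a group, and the members differed in direction and stage.

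**Figure D1:**
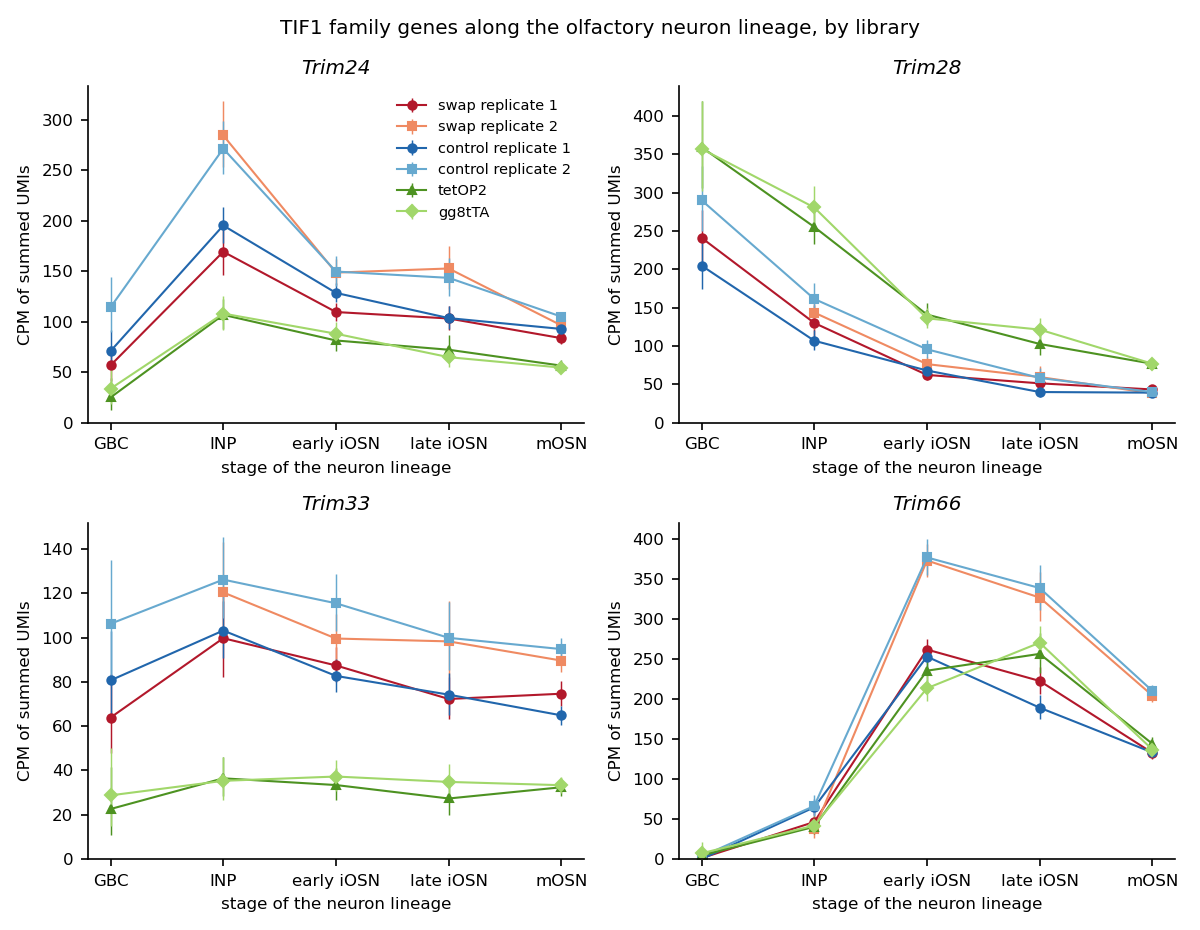
Level of each TIF1 family gene (CPM of UMIs summed over the cells of a stage, linear axis from 0) at the 5 stages of the neuron lineage, 1 line per library, with exact Poisson 95% intervals of the UMI sums as bars. *Trim28* descends from GBCs to mOSNs, *Trim24* peaks in INPs, *Trim66* climbs from 2.56 CPM over all GBCs to 213 to 377 CPM in early iOSNs, and *Trim33* has no called step; the GBC sum of swap replicate 2 is not drawn.

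Shares of cells with a UMI followed the same course. With every cell thinned to 3000 UMIs, *Trim66* was found in 0% to 4.55% of GBCs (median of 5 libraries 0%), 9.46% to 23.6% of INPs (median of 6 libraries 14.98%), 42.3% to 62.7% of early iOSNs (median 49.6%), 43.3% to 61.9% of late iOSNs (median 51.0%) and 32.7% to 46.0% of mOSNs (median 33.7%). In HBCs and fibroblasts, where its level was low, the thinned share was 0.595% to 5.49% and 0% to 5.65%, and the GBC share was not above these. Without thinning, 71.4% to 85.7% of mOSNs held a *Trim66* UMI, at a median depth of 11323 to 12488 UMIs per library, and 2.04% to 22.3% of fibroblasts at 10447 to 16093 UMIs. *Trim28* was found in 33.3% to 77.3% of thinned GBCs and in 10.0% to 20.1% of thinned mOSNs. For *Trim24* the INP share was 23.1% to 49.4% and the mOSN share 14.5% to 26.4%. Thinning left out 239 mOSNs and 2 GBCs of under 3000 UMIs, in all libraries together.

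Outside the lineage the members differed in which cell types held them. The order of levels was taken over the swap and control libraries, in 14 gates. For *Trim66* the early iOSNs (316 ± 67.9 CPM, SD, n = 4), late iOSNs (269 ± 74.6) and mOSNs (169.9 ± 42.9) came first with overlapping ranges, and the mOSN range lay apart from that of INPs (53.6 ± 14.3) and all later gates. Sustentacular cells followed with 45.1 ± 24.5 CPM, and the gates from macrophages down to fibroblasts had means of 4.65 to 25.8 CPM. For *Trim24*, INPs (230.0 ± 56.5) stood apart from early iOSNs (134 ± 19.0), after which neighbouring ranges overlapped down to the neutrophil lineage (12.9 ± 4.9).

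In the order for *Trim28*, GBCs (245 ± 42.8 CPM, SD, n = 3) stood apart from INPs (135 ± 23.0, n = 4), which overlapped with cells of the B lineage (98.2 ± 12.5). Mature OSNs (40.1 ± 2.2) came 13th of 14, apart from the neutrophil lineage (25.9 ± 7.3) below them and overlapping with ensheathing glia (40.1 ± 16.1). HBCs, the quiescent stem cells of the epithelium, had 76.2 ± 6.9 CPM, below the GBCs and close to early iOSNs (75.5 ± 14.6). *Trim33* ran from 112 ± 12.9 in INPs and 110.1 ± 28.8 in Ascl3-type microvillar cells to 36.0 ± 10.7 in the neutrophil lineage, and no pair of neighbours in its order had ranges apart. Microvillar *Trim33* by library was 76.9 and 105 CPM in swap replicates 1 and 2 and 112 and 147 in control replicates 1 and 2. The log2 fold change of -0.46 (95% interval -1.15 to 0.23, edgeR adjusted p = 1.00) was not called. In *tetOP2* and *gg8tTA* microvillar cells had the highest *Trim33* level of the gates of that library, at 67.7 and 56.1 CPM.

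**Figure D2:**
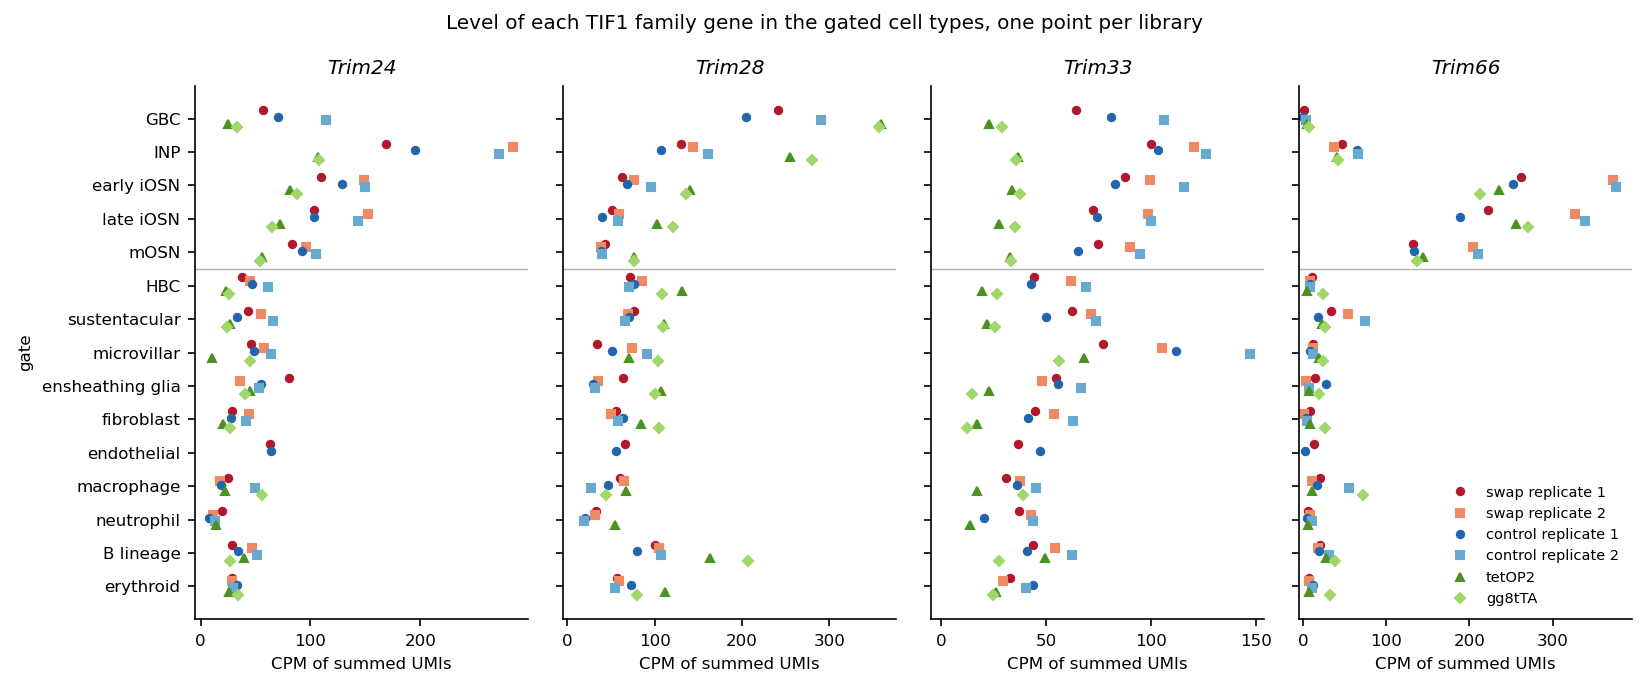
Level of each TIF1 family gene (CPM of summed UMIs, linear axis) in 15 gates, 1 point per library and gate of at least 20 cells; gates above the grey line are stages of the neuron lineage. Only the late stages of the lineage hold *Trim66* above 100 CPM, GBCs have the highest *Trim28*, INPs the highest *Trim24* in the swap and control libraries, and *tetOP2* and *gg8tTA* (green) lie lower for *Trim33* and higher for *Trim28* than the other libraries in mOSNs.

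Sustentacular cells, the main supporting cells of the epithelium, were compared with mOSNs of the same library. *Trim66* was higher in mOSNs in 6 of 6 libraries, by 2.80 to 7.31 times, with a log2 fold change of 2.24 (SE 0.17, edgeR adjusted p = 1.23e-05). *Trim24* was higher in mOSNs by 1.08 (SE 0.10, adjusted p = 3.15e-05) and *Trim28* lower by a log2 fold change of -0.66 (SE 0.06, adjusted p = 4.35e-05), each in 6 of 6 libraries. The 0.44 of *Trim33* (SE 0.06, adjusted p = 0.00030) stayed under the threshold of size. So 3 of 4 members were called, against 61.5% of 13210 genes.

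*Trim66* in sustentacular cells was 33.9 and 53.6 CPM in swap replicates 1 and 2, 18.2 and 74.9 in control replicates 1 and 2, 23.2 in *tetOP2* and 26.9 in *gg8tTA*. Genes of the mature neuron were counted in the same cells. As a percentage of the mOSN level of the same library, *Omp* stood at 10.95%, 18.4%, 6.5%, 21.3%, 5.7% and 5.6% in that order of libraries, and *Trim66* at 25.6%, 26.2%, 13.7%, 35.7%, 16.1% and 19.7%. *Cnga2* (5.1% to 20.8%) and *Adcy3* (6.6% to 21.0%), the channel subunit and cyclase of odour transduction, ordered the libraries as *Omp* did, and so did *Gap43*, the marker of immature OSNs (19.3% to 88.1%). *Stoml3*, a gene of the OSN cilium, did not, standing at 5.9%, 11.2%, 4.5%, 12.8%, 14.2% and 37.1% in the order of libraries above, highest in *gg8tTA*, where *Omp* was lowest. Its mOSN level, to which the percentage refers, was low in *tetOP2* and *gg8tTA*, at 31.8 and 39.0 CPM against 172 to 294 CPM in the swap and control libraries. In sustentacular cells it was 14.5 CPM in *gg8tTA* and 36.4 CPM in control replicate 2. *Trim66* and *Omp* had the same 3 libraries on top, control replicate 2, swap replicate 2 and swap replicate 1, but differed in the order of the rest, *Trim66* being lowest in control replicate 1. The part that neuronal transcripts had in the *Trim66* level of sustentacular cells was not tested. *Trim28* in sustentacular cells was 76.9 and 69.1 CPM in the swap libraries, 70.1 and 65.6 in the controls, 111 in *tetOP2* and 109 in *gg8tTA*, or 142% to 181% of its mOSN level. *Cyp2g1*, an olfactory cytochrome of sustentacular cells, was at 16.1 to 128 CPM in mOSNs against 6223 to 13076 CPM in sustentacular cells. It is a marker of the sustentacular gate, and cells passing that gate were kept out of the mOSN gate, so the gates themselves favour this contrast. The part that sustentacular transcripts had in the mOSN levels was not tested.

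**Figure D3:**
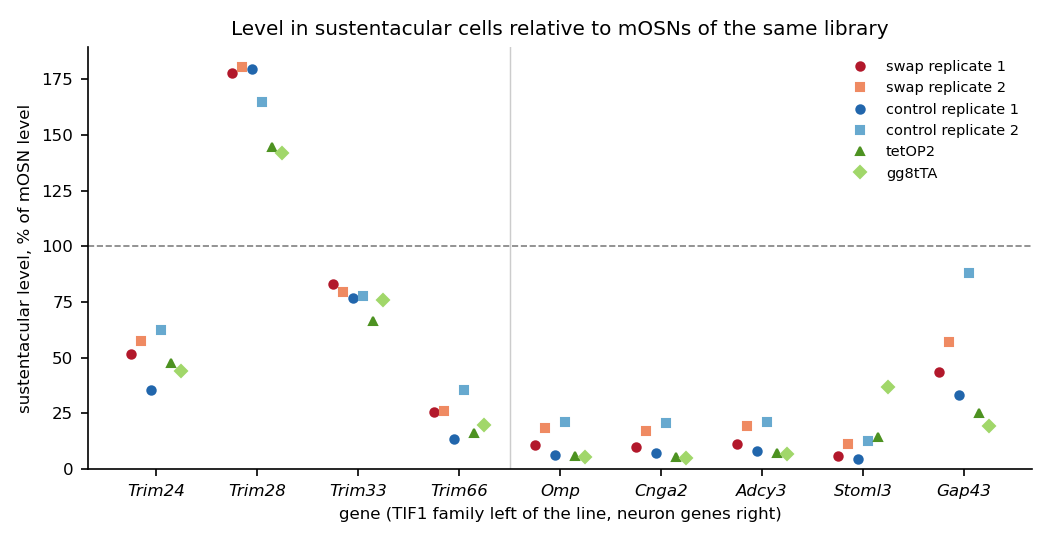
Level in sustentacular cells as a percentage of the mOSN level of the same library (vertical axis from 0; the dashed line marks equal levels), 1 point per library, for the TIF1 family genes and 5 genes of the neuron. *Trim28* lies above 100% in all libraries, *Trim66* lies at 13.7% to 35.7%, lowest in control replicate 1, *Omp* at 5.6% to 21.3%, lowest in *gg8tTA*, and *Stoml3* is highest in *gg8tTA* (37.1%).

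Within the mOSNs, cells with at least 2 *Nqo1* UMIs, a marker of dorsal OSNs, were set against cells with none. *Trim24* differed by -0.24 (SE 0.05, edgeR adjusted p = 0.012) and was lower in the *Nqo1*-positive cells in 6 of 6 libraries. *Trim66* differed by 0.15 (SE 0.04, adjusted p = 0.030) and was higher in 5 of 6 libraries. Both lay under the threshold of size, as did *Trim28* at -0.05 (adjusted p = 0.69) and *Trim33* at 0.08 (adjusted p = 0.27). No member was called, against 5.24% of 11034 genes. The retinoic acid receptor *Rara* was called lower in *Nqo1*-positive cells, with a log2 fold change of -1.72 (SE 0.19, adjusted p = 0.00018).

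The swap was then compared with the controls in each gate, to ask whether the TIF1 genes differ where HP1α takes the place of HP1β. In mOSNs no difference was detected for any member. The log2 fold change, swap over control, was -0.17 for *Trim24* (95% interval -0.69 to 0.35), 0.0076 for *Trim28* (-0.48 to 0.49), 0.015 for *Trim33* (-0.65 to 0.68) and -0.047 for *Trim66* (-0.93 to 0.84), with edgeR adjusted p = 1.00 for each. The values by library, given above, overlapped between the groups for every member. *Trim66* had 132.5 and 204 CPM in swap replicates 1 and 2 and 133 and 209.9 CPM in control replicates 1 and 2. No gene at all was called in mOSNs (0% of 12873 genes), while DESeq2 called 200. An edgeR unadjusted p under 0.05 was found for 342, a smaller share than the 0.05 that chance alone would give. *Cbx1* itself, at a log2 fold change of -5.73, was not called. This fit, which does not pair libraries by replicate number, is thus not one in which a small change of a member could pass.

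Over all 14 gates, 52 member values were tested with edgeR and 0 were called, at an adjusted p of 0.81 or more. In this fit, which does not pair libraries by replicate number, none had an unadjusted p under 0.05. DESeq2 called none either. Few genes of any kind were called, namely 0% in mOSNs, sustentacular cells, ensheathing glia, erythroid cells and the B lineage, 0.00862% in early iOSNs, 0.00966% in HBCs, 0.0102% in fibroblasts, 0.0141% in GBCs, 0.0158% in macrophages, 0.0448% in INPs, 0.0728% in microvillar cells, 0.0785% in late iOSNs and 0.956% in the neutrophil lineage. In early iOSNs, HBCs and GBCs the only gene called, 1 in each gate, was *Cbx1*, the swapped gene. Of the 52 estimates, 46 lay within 0.58 of 0, and they ranged from -1.13 (*Trim66* in macrophages) to 0.79 (*Trim28* in macrophages). Macrophages numbered 56 to 97 in the swap and control libraries. Their *Trim66* level was 20.01 and 11.3 CPM in swap against 16.9 and 55.0 CPM in control replicates 1 and 2. Control replicate 2 thus stood apart, on 22 UMIs. *Omp* in the same sums was at 189 and 144 CPM in swap and 99.1 and 362 CPM in control replicates 1 and 2. The part that neuronal transcripts had in the *Trim66* level of macrophages was not tested. *Trim28* there was 60.0 and 65.2 CPM in swap against 46.4 and 27.5 in control libraries, with an interval of -0.12 to 1.70. Among basal cells, HBCs had 37.7 and 44.6 CPM of *Trim24* in swap and 47.2 and 61.5 in control libraries, a log2 fold change of -0.42 (95% interval -1.13 to 0.29). *Trim66* was too low for a test in GBCs, ensheathing glia, fibroblasts and microvillar cells. The GBC fit used all 4 libraries, including the 18 cells of swap replicate 2, a choice made after the cell numbers had been seen.

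The lowest p was that of *Trim66* in INPs. Its levels were 46.3 and 37.0 CPM in the swap libraries and 64.6 and 66.3 CPM in the controls. The INP sums of these libraries also differed in other neuronal genes. *Gng8* was at 309 and 634 CPM in swap replicates 1 and 2 and 591 and 728 in control replicates 1 and 2. *Omp* was at 107 and 4.6 CPM in swap and 73.1 and 127 in control libraries. Whether the cell content of the gate bears on the *Trim66* levels was not tested. The log2 fold change of *Trim66* was -0.62 (SE 0.28, 95% interval -1.24 to 0.0045, edgeR unadjusted p = 0.051, adjusted p = 1.00), so it was not called. After thinning, a *Trim66* UMI was found in 15.8% and 9.46% of the INPs of swap replicates 1 and 2 and in 18.1% and 23.6% of those of control replicates 1 and 2, with p = 0.33 in an exact two-sided permutation test, the smallest value that 2 against 2 libraries can give. *Trim66* in early iOSNs was close in both groups at a log2 fold change of -0.0060 (95% interval -0.67 to 0.66). In mOSNs the thinned shares differed by -1.78, -0.547, -0.394 and -1.24 percentage points for *Trim24*, *Trim28*, *Trim33* and *Trim66*, with exact permutation p of 0.67 or 1.00.

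**Figure D4:**
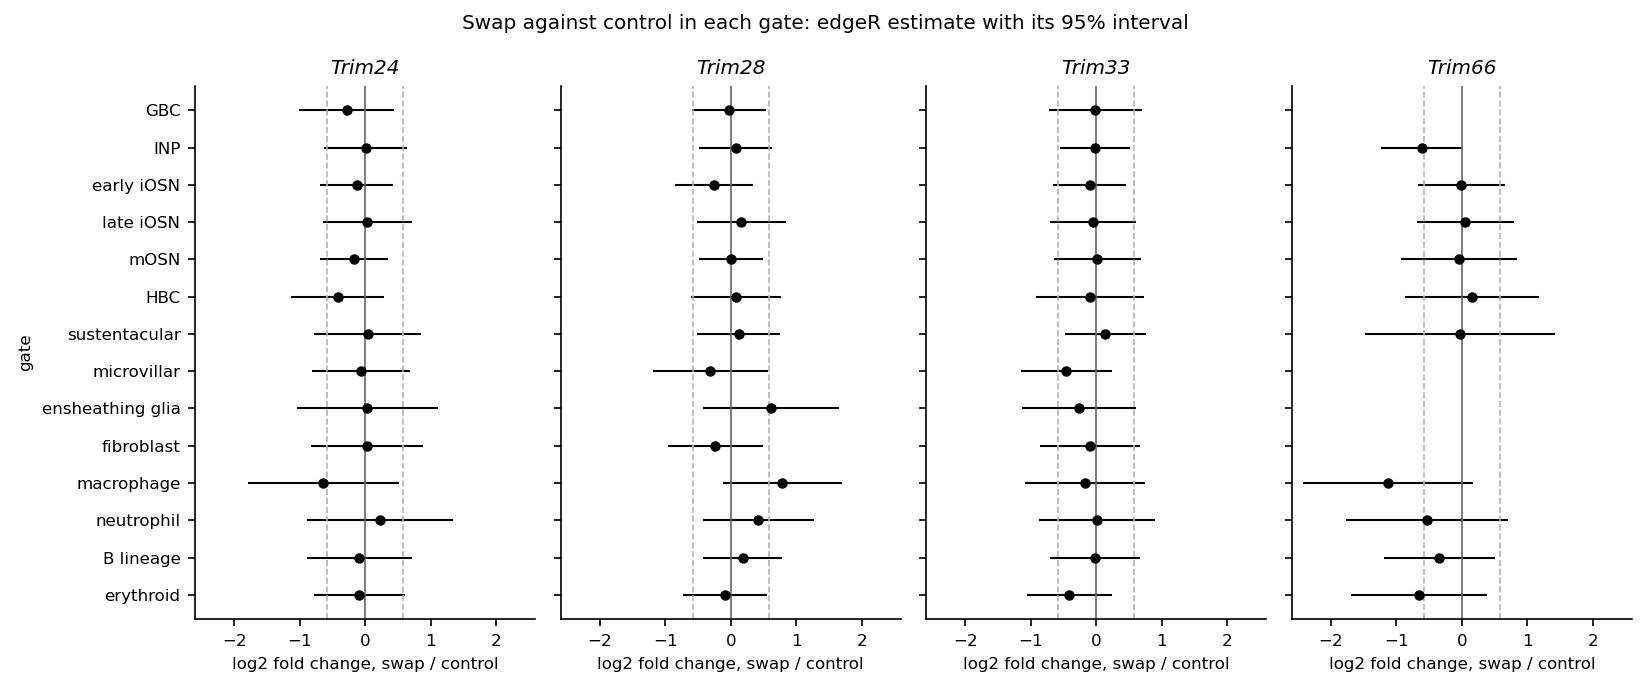
Log2 fold change of swap over control libraries in each gate (edgeR estimate as points, 95% interval as bars; dashed lines at -0.58 and 0.58), 1 panel per TIF1 family gene. All 52 intervals of this fit, which does not pair libraries by replicate number, reach 0. The widest belong to gates of few cells, and *Trim66* has no estimate in 4 gates.

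Whether the swap effect itself differed between mOSNs and early iOSNs was tested as an interaction. The difference of the 2 log2 fold changes was 0.0054 for *Trim24*, 0.29 for *Trim28* (SE 0.21, 95% interval -0.25 to 0.83), 0.15 for *Trim33* and -0.017 for *Trim66*, with edgeR adjusted p = 1.00 for each. No gene was called (0% of 13546 genes), while DESeq2 called 38. An edgeR unadjusted p under 0.05 was found for 441, again a smaller share than the 0.05 that chance alone would give.

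Libraries of the same group differed from each other. Replicates numbered 2 lay above replicates numbered 1 in mOSNs, swap and control alike, for *Trim66* (mean ratio 1.56), *Trim33* (1.32) and *Trim24* (1.14), with ranges apart, but not for *Trim28* (0.949, ranges overlapping). Such a gap was common, with 74.0% of 8130 genes having ranges apart between the 2 numbers, and the library names in the labels begin alike for samples of the same number. Against the other 4 libraries, *tetOP2* and *gg8tTA* were lower in mOSNs for *Trim33* (ratio 0.406) and *Trim24* (0.587) and higher for *Trim28* (1.92), with ranges apart, as for 56.9% of 8298 genes. *Trim66* overlapped (ratio 0.826). These libraries differ in mouse line and in the header of their files, which names a software version only in the swap and control matrices. Whether *tetOP2* and *gg8tTA* were counted like the others, introns included, is not stated, so the origin of these gaps cannot be told apart.

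Between *tetOP2* and *gg8tTA*, with 1 library each and no test, the members were close in mOSNs. *Trim24* had 56.4 CPM (exact Poisson 95% interval 51.4 to 61.7) in *tetOP2* and 54.4 (50.1 to 59.0) in *gg8tTA*. *Trim28* had 76.7 CPM (70.9 to 82.9) and 76.8 (71.6 to 82.2). *Trim33* had 32.4 CPM (28.7 to 36.5) and 33.4 (29.99 to 37.0). *Trim66* had 144 CPM (136 to 152) and 137 (129.8 to 144). In every case the intervals, which cover counting error only, overlapped.

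Most genes of the Trim28 corepressor complex were lower late in the lineage as well. Of 19 partners, those of the SUMO pathway and both swapped *Cbx* genes included, 14 were lower and 0 higher in mOSNs than in GBCs. Of all genes 28.6% were lower and 37.3% higher. The partners had a median log2 fold change of -1.12, against 0.24 over all genes. The fit holds swap libraries, in which *Cbx1* is exchanged for *Cbx5*. In control replicate 2 *Cbx1* was instead higher in mOSNs (153 CPM) than in GBCs (108 CPM). It was lower in control replicate 1 (80.3 against 220 CPM), *tetOP2*, *gg8tTA* and swap replicate 1. The histone chaperone *Rbbp4* fell by 1.59 (SE 0.06, edgeR adjusted p = 6.87e-17), *Cbx5* by 2.63 (SE 0.13) and the HP1γ gene *Cbx3* by 1.54 (SE 0.08). At the step from INPs to early iOSNs 9 were lower and 1 higher (19.3% and 23.7% of genes), *Hdac1* falling by 1.48 (SE 0.10). *Hdac2*, the other deacetylase of the complex, rose at that step by 1.09 (SE 0.13) and then fell by 1.65 from early to late iOSNs (SE 0.14) and by 1.42 from late iOSNs to mOSNs (SE 0.14). *Setdb1* was lower in mOSNs than in GBCs with a log2 fold change of -0.61 (SE 0.15, adjusted p = 0.00080). Against sustentacular cells 7 of 19 were lower and 0 higher, beside 31.9% and 29.6% of all genes (61.5% called in either direction).

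KRAB zinc finger genes, whose proteins bring Trim28 to DNA, were represented by 5 genes, 4 of them tested. In mOSNs against GBCs, where 28.6% of all genes were lower, 3 of the 4 were lower, *Zfp568* by a log2 fold change of -2.35 (SE 0.45), *Zfp932* by -2.01 (SE 0.28) and *Zfp809* by -1.39 (SE 0.33), and the same 3 were lower than in sustentacular cells, as were 31.9% of all genes. From late iOSNs to mOSNs *Zfp932* rose by 0.75 (SE 0.28, edgeR adjusted p = 0.034). The HUSH silencing complex and *Morc2a* gave a mixed picture over 4 genes. *Fam208a* (the gene of the HUSH subunit TASOR) was higher in mOSNs than in GBCs by 1.41 (SE 0.17, edgeR adjusted p = 1.08e-07) and *Morc2a* was lower, with -0.85 (SE 0.18). Medians were -1.70 for the 4 KRAB zinc finger genes tested and 0.03 for the HUSH list. The former describes these 4 genes and not KRAB zinc finger genes as a class.

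Of 8 SMAD pathway genes, the pathway of Trim33, 7 were tested between GBCs and mOSNs. In mOSNs 4 were lower, *Smad5* with -3.18 (SE 0.28), the inhibitory *Smad7* with -3.33 (SE 0.50), the ubiquitin ligase gene *Smurf2* with -1.54 (SE 0.16) and *Smad2* with -1.03 (SE 0.18), and *Smurf1*, the other ligase, was higher by 1.15 (SE 0.30, edgeR adjusted p = 0.0014). Their median was -1.03, and 5 of 7 called lay near the 65.9% of all genes called in this comparison. Against sustentacular cells 5 of 8 were lower and 0 higher, near the 61.5% of genes called there (31.9% lower).

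Nuclear receptor genes, the partners of Trim24, split. Of 6 tested, the retinoic acid receptor *Rarg* rose by 7.19 from GBCs to mOSNs (SE 0.54, edgeR adjusted p = 1.56e-11) and the thyroid hormone receptor *Thra* by 2.09 (SE 0.23), while *Rara* was lower by a log2 fold change of -2.39 (SE 0.20). Between GBCs and mOSNs 65.9% of all genes were called in either direction. In early iOSNs against INPs, the step at which *Trim24* fell, the receptors split as well. *Rara* was lower with -1.76 (SE 0.16) and *Rxra* with -0.96 (SE 0.35), while *Thra* was higher by 1.59 (SE 0.16) and *Rarb* by 2.26 (SE 0.53). At this step 43.0% of all genes were called. Over the remaining *Trim* genes, 23 of 52 were tested along the lineage, and 11 were higher and 5 lower in mOSNs than in GBCs, beside 37.3% and 28.6% of all genes, a share called near the background, led by *Trim2* with 4.25 (SE 0.18), *Trim59* with -4.33 (SE 0.20), *Trim27* with -2.00 (SE 0.12) and *Trim45* with 4.65 (SE 0.31). In the swap comparisons no gene of the lists other than *Cbx1* was called in any gate.

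Genes most like each member were taken by Pearson correlation of log2(CPM + 1) over 84 sums of a gate and a library, among 6933 genes with a mean of at least 20 CPM. The points share libraries and gates, and the values describe these sums. Nearest to *Trim66* were *Spock1* (r = 0.931), *Atf5* (0.915), *Fstl5* (0.915), *Aplp1* (0.912) and *Mslnl* (0.908), of which *Atf5* encodes a transcription factor translated in immature OSNs. Nearest to *Trim28* were *Cdk4* (0.883), the cell cycle kinase, then *Ranbp1*, *Tcp1*, *Hdgf* and *Eif3f* (0.824 to 0.827). For *Trim24* they were *Lztfl1* (0.882), *Zfp329*, *Smarcc2*, the histone demethylase gene *Kdm1a* (0.861) and *Zfp644*, and for *Trim33* *Cul3* (0.861), *Usp34*, *Prrc2c*, *Rev3l* and *Rb1cc1* (0.850). Among the members the correlation was 0.675 for *Trim24* with *Trim33*, 0.575 for *Trim24* with *Trim66*, 0.281 for *Trim33* with *Trim66* and 0.243 for *Trim24* with *Trim28*, and -0.100 and -0.058 for *Trim28* with *Trim33* and *Trim66*.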

How the data were processed

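Olfactory epithelia were dissociated with papain and made into single-cell libraries with the 10X Genomics Chromium kit, then aligned with Cell Ranger with introns included; the headers of the swap and control matrices name software version 3.1.0, and the submitters' processing notes name mm10. The authors deposited counts, UMIs per gene and cell barcode, not normalized, of 6 libraries. Genes are named by symbol only.

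Gates needed 3 *Omp*, 3 *Gap43*, 3 *Neurog1* plus *Neurod1* or, for GBCs, 2 marker UMIs for the stages, the leading marker deciding, and at least 3 list markers of 2 UMIs each for other types. UMIs were summed per gate and library (at least 20 cells) and tested with edgeR 4.0.16 (quasi-likelihood, TMM, low-count filter, Benjamini-Hochberg) in R 4.3.3, with the library as a block within animals, and a gene was called at an adjusted p under 0.05 and a log2 fold change over 0.58. Standard errors and intervals were taken from the edgeR p-values. The script was tested on simulated counts. Predicted doublets were kept, except in an alternative. DESeq2 1.42.0, other filters, gates and libraries left out were tried. Members, lists and the rule for named genes (list genes of smallest adjusted p) were chosen with earlier results of these data known. The study has 2 biological replicates per group, and the names of the Cre driver, the GBC marker and 1 corepressor partner are not reported here.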

Additional observations from a re-analysis of the deposited data

How the results depend on the processing

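Of 909 alternative values for 84 member results, 892 kept their side of the threshold, 12 lost a call, 5 gained one and no call reversed direction. Estimates that were not called could change sign. In swap against control, *Trim66* ranged from -0.43 to 0.27 in mOSNs and from -0.67 to 1.16 in sustentacular cells. For *Trim66* from late iOSNs to mOSNs the call was lost with no filter on low counts (-0.54), in control libraries only (-0.41), in swap and control libraries only (-0.46), with sums of 50 cells or more (-0.56), with doubled UMI minimums (-0.41), without predicted doublets (-0.56) and in swap libraries only (-0.58); leaving out 1 library gave -0.62 to -0.56. *Trim24* in mOSNs against GBCs was called with no filter (0.65, where the median of all genes moved from 0.24 to 0.62), with doubled minimums (0.78) and in *tetOP2* and *gg8tTA* only (0.94), and 1 library left out gave 0.38 to 0.59. In *tetOP2* and *gg8tTA* only, *Trim24* from INPs to early iOSNs (-0.43) and *Trim28* from GBCs to INPs (-0.39) were not called. *Trim28* from early to late iOSNs was called in control libraries only (-0.73). Fits of swap, or of *tetOP2* and *gg8tTA*, libraries only were chosen after seeing the data. None of 497 alternative values for swap against control called a member. The causes of these changes were not tested.

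Counts of genes called moved by over 1.5 times as follows. INP against GBC gave 1559 in swap libraries only and 2066 in *tetOP2* and *gg8tTA* only (4378 otherwise), late against early iOSNs 1200 and 1003 (2368), mOSNs against late iOSNs 1688 in control and 1203 in swap libraries only (2578), and *Nqo1*-positive against negative mOSNs 1326 with no filter (578). The swap comparison in mOSNs gave 200 with DESeq2, 2 with no filter and 122 to 251 with 1 library left out (0 otherwise), where the lone library is assumed to vary like the others; the other gates in sum, GBCs left out, gave 401 with DESeq2, 1675 with no filter, 850 with the replicate block and 547 to 1955 with 1 library left out (106 otherwise). The interaction gave 38 with DESeq2 and 0 to 15 with 1 library left out. With *Omp* of 10 UMIs or more, *tetOP2* mOSNs had 67.5 CPM of *Trim28* and 157 of *Trim66*, and *gg8tTA* mOSNs 59.1 of *Trim24*, 69.0 of *Trim28* and 169 of *Trim66*.

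Swap and control share replicate numbers 1 and 2. With the replicate block the mOSN values were -0.17 (SE 0.08, edgeR adjusted p = 0.84) for *Trim24*, 0.0069 for *Trim28*, 0.023 for *Trim33* and -0.059 (SE 0.07, adjusted p = 0.89) for *Trim66*. In this fit 0 genes were called in mOSNs, and no member was called in any gate. Some intervals left out 0, unlike without the block. *Trim66* in INPs was at -0.62 (interval -1.10 to -0.14, edgeR unadjusted p = 0.014, adjusted p = 0.39). *Trim33* in microvillar cells was at -0.47 (unadjusted p = 0.031, adjusted p = 0.82). *Trim28* was at -0.25 in early iOSNs (unadjusted p = 0.045, adjusted p = 0.64) and 0.81 in macrophages (unadjusted p = 0.049, adjusted p = 0.74). Deviations of same-numbered samples correlated at 0.425 in mOSNs, 0.226 in late iOSNs, 0.414 in early iOSNs, 0.325 in INPs and 0.612 in sustentacular cells; with 2 pairs, and no label that says what a number marks, the pairing was not taken as shown.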

Other observations

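INPs pass from *Neurog1* to *Neurod1* as they commit to the neuron, and the gate was split, after the data had been seen, into cells with more *Neurod1* than *Neurog1* UMIs and the rest. Values of the split are a description with no test, since the *Neurog1*-led part held 6 to 100 cells per library and at least 20 in 2 libraries. *Trim24* was higher in the *Neurod1*-led cells in 6 of 6 libraries, at 109 to 295 CPM against 75.9 to 176 CPM. *Trim33* was higher there in 5 of 6 libraries, *Trim28* in 4 of 6 and *Trim66* in 3 of 6.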
